A study of Rattus norvegicus with 156 samples.

Results

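Uninjured rat sciatic nerve was set against the L4 and L5 dorsal root ganglia (DRG), the ganglia that hold the cell bodies of the sensory neurons whose axons run in that nerve. Of the 52 RNA pools analysed in the series, 17 were used: 6 of sciatic nerve and 11 of ganglia (3 ipsilateral L4, 3 contralateral L4, 3 ipsilateral L5 and 2 contralateral L5). They were chosen by their titles as the pools of naive rats given gabapentin, sham-operated rats and naive rats. Each pool had been hybridised to the 3 arrays (A, B and C) of the Affymetrix rat U34 set, so these are 51 of 156 arrays.

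The series studies spinal nerve ligation, a rat model of neuropathic pain, and the 3 groups used here are its groups without a ligation. Naive rats had no surgery. Naive rats with gabapentin, an anticonvulsant used against neuropathic pain, also had no surgery and received 100 mg/kg by the intraperitoneal route once a day for 7 days. Sham-operated rats had the spinal nerves exposed but not tied; per the labels the drug-free groups received saline, and rats were killed 19 to 21 days after surgery. In naive rats the side is only a label. Nerve was taken at mid-thigh, groups held 8 to 12 rats, and each array carried RNA of a pool of 4 to 6 animals; strain and age are not given in the labels used here. Whether the nerve and ganglion pools of a group came from the same rats is not stated, so the 3 treatments were the replicates (n = 3). The p-values rest on the spread of the nerve minus ganglion difference across the 3 treatments and not on the spread between pools. In the limma fit that spread was moderated by the variance of other probe sets (5.93 prior degrees of freedom).

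A peripheral nerve contains axons, the Schwann cells that wrap them in myelin, endoneurial fibroblasts, perineurial cells that form a barrier around each bundle, vessels, macrophages and mast cells, inside an outer epineurium of collagen and fat. It contains no sensory neuron cell bodies, and most messenger RNA of a neuron lies in its cell body. A ganglion adds the neuron bodies and the satellite glia around them to Schwann cells, vessels and connective tissue. In these pools, fewer cells of a type and less RNA per cell cannot be told apart.

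Nerve and ganglion pools differed in array brightness and RNA integrity as well as tissue. Median signal on array A was 16 to 26.9 on nerve arrays and 16 to 38.3 on ganglion arrays, and on array B 10.8 to 14.7 on nerve arrays and 11.4 to 42.8 on ganglion arrays. The 3′ to 5′ signal ratio of the Gapdh control probe sets, which increases as RNA is degraded, was 1.60, 3.05 and 7.38 in nerve pools (lowest, median and highest) and 1.13, 1.26 and 3.16 in ganglion pools. The naive ipsilateral nerve pool had the highest ratio of all, and the sham contralateral L4 pool had the highest among ganglia, where no other pool was above 1.34. After quantile normalization, nerve pools correlated with each other at 0.927 to 0.965 over probe sets on the log2 scale. The correlation was 0.902 to 0.975 among ganglion pools and 0.656 to 0.778 between a nerve and a ganglion pool.

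Values below are quantile-normalized array signals of 1 probe set per gene, given as lowest, median and highest over the 6 nerve pools and over the 11 ganglion pools. Differences are nerve minus ganglion on the log2(signal + pseudocount) scale, so positive values mean higher in nerve, and they understate the change of dim genes. A gene was called at a Benjamini-Hochberg adjusted p under 0.05 in the limma fit over all 17088 probe sets kept.

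Of the 4 markers, Prx and Nefl separated the tissues. Prx (periaxin, a scaffold protein of myelinating Schwann cells) had signals of 3109, 3878 and 4378 in nerve pools and 988, 1224 and 1812 in ganglion pools. Every nerve pool lay above every ganglion pool, with a difference of 1.57 (SE 0.11, adjusted p = 1.38e-05). Nefl, the light neurofilament chain of neurons, had 32, 73.3 and 98 in nerve pools and 4744, 5121 and 5939 in ganglion pools. Every nerve pool lay far below every ganglion pool, with a difference of -6.29 (SE 0.16, adjusted p = 1.57e-07).

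The other 2 markers, the myelin genes Pmp22 and Mbp, were bright in both tissues. Pmp22 (peripheral myelin protein) was at 6829, 6829 and 6829 in nerve pools, the highest value that quantile normalization allows on array A, and at 4832, 5607 and 6829 in ganglion pools. The naive ipsilateral L5 ganglion pool reached the same ceiling. The Pmp22 difference was 0.28 (SE 0.11, adjusted p = 0.0564), which missed the threshold, as it did in 17 of 27 alternatives. It was 0.88 with median scaling and 0.70 with trimmed mean scaling, both past the threshold. Mbp (myelin basic protein) had 3761, 4499 and 4845 in nerve pools and 2676, 3486 and 4154 in ganglion pools, which overlap. Its difference of 0.25 (SE 0.11, adjusted p = 0.0887) also missed the threshold, as it did in 21 of 27 alternatives. It was 0.99 with median scaling and 0.97 with trimmed mean scaling, both past the threshold.

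**Figure D1:**
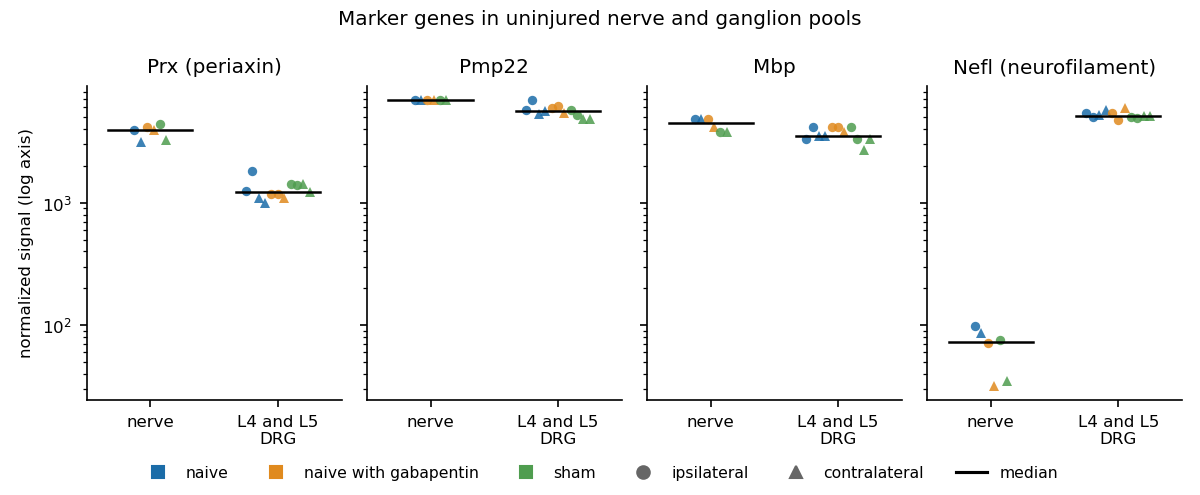
Normalized signal (log axis) of Prx, Pmp22, Mbp and Nefl in each pool, with the 6 nerve pools on the left and the 11 ganglion pools on the right of each panel. Colours give the treatment, symbols the side and bars the median. Prx is higher in every nerve pool, Nefl is lower in every nerve pool, and the 6 nerve pools of Pmp22 share 1 value at the top of the array scale.

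Genes that passed the test were the majority. Of 17088 probe sets, 4845 were higher and 4674 lower in nerve, or 28.4% and 27.4%. Taken as 1 probe set per gene, 2796 of 8764 genes (31.9%) were higher and 2222 (25.4%) were lower in nerve. On the deposited signal, with no scaling between arrays, 1885 probe sets were higher and 9280 lower, and the median difference over probe sets was -0.55, so directions here are relative to an equal signal distribution in all pools. All 6 nerve pools lay above all 11 ganglion pools for 1578 genes (18%) and below them for 1289 (14.7%). Among called genes, 237 were more than 4-fold higher and 308 more than 4-fold lower in nerve.

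The genes described below come from 25 lists of cell type markers and pathways. The lists held 567 tested genes among 665 on the arrays, of which 234 were higher, 197 lower and 136 not past the threshold; of all genes tested, 57.3% were called in either direction. A gene that was bright in only 1 tissue passed the signal filter through that tissue, so counts over tested members describe the lists and are not support for them. The median difference over all tested genes was 0.05, and 19 genes are in more than 1 list.

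**Figure D2:**
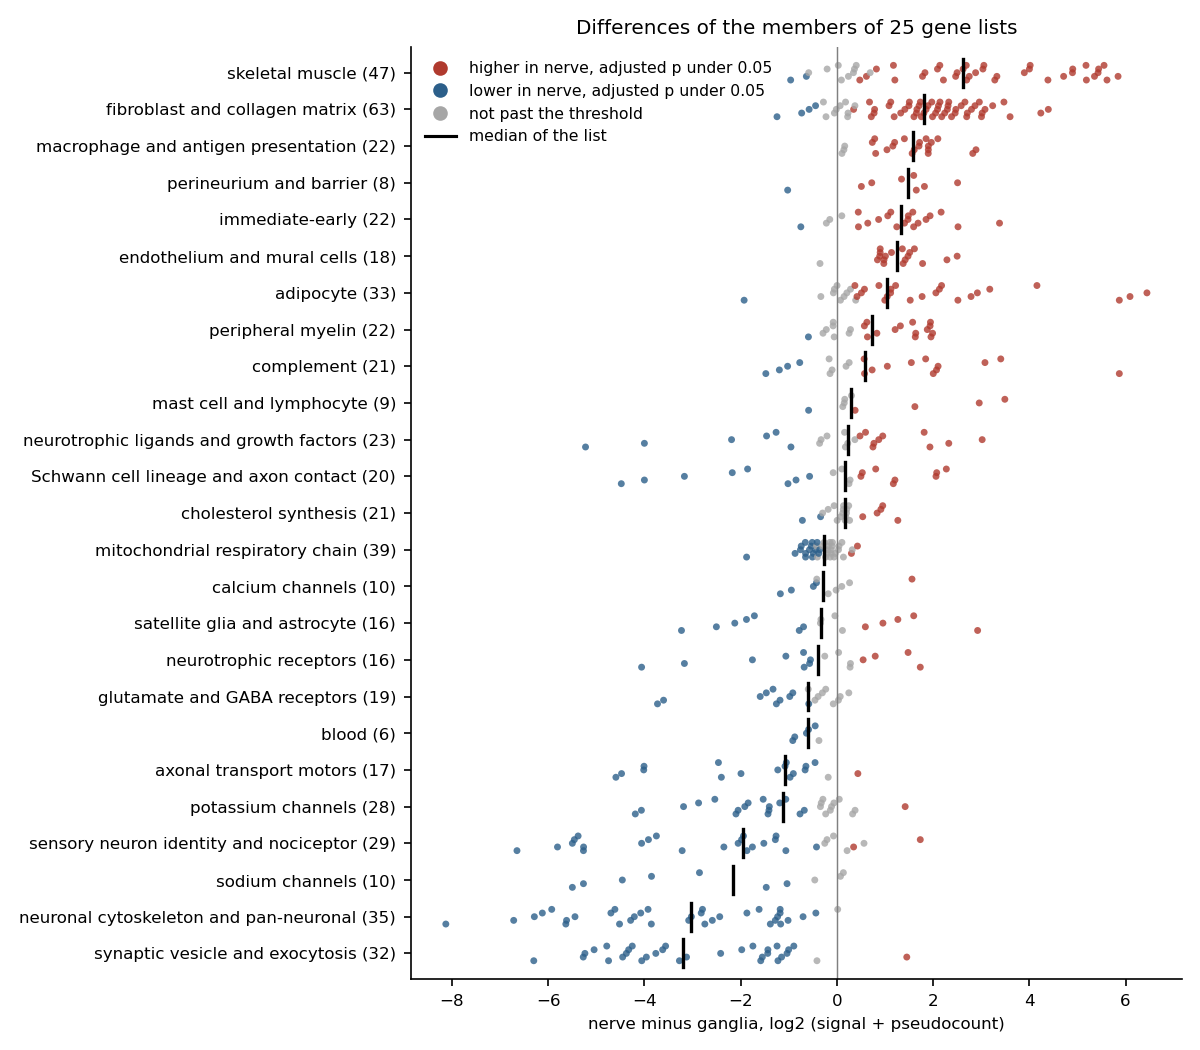
Log2 difference (nerve minus ganglia) of each tested member of the 25 gene lists, a point per gene coloured by its call, with a bar at each list's median and the number tested in brackets. Skeletal muscle (36 of 47 higher), fibroblast and matrix (50 of 63), endothelium (17 of 18) and macrophage (19 of 22) lie at the nerve end, and pan-neuronal (34 of 35 lower) and synaptic vesicle (30 of 32 lower) genes at the ganglion end.

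Peripheral myelin genes were mostly higher in nerve. Of 22 members tested, 14 were higher, 1 was lower and 7 did not pass, with a median difference of 0.73. On the deposited scale 10 were higher and 6 lower. Pllp (plasmolipin, a myelin proteolipid) had signals of 445, 679.7 and 871 in nerve pools and 103, 166 and 266 in ganglion pools, a difference of 1.99 (SE 0.12, adjusted p = 6.47e-06). Ugt8, the enzyme that makes the myelin lipid galactosylceramide, had 1439, 1850.4 and 2163 in nerve pools and 309, 493 and 649.9 in ganglion pools, a difference of 1.95 (SE 0.13, adjusted p = 1.03e-05). Egr2, the transcription factor that drives Schwann cell myelination, had 262, 353 and 525 in nerve pools and 62, 94.6 and 137 in ganglion pools, a difference of 1.94 (SE 0.14, adjusted p = 1.38e-05). All nerve pools were above all ganglion pools for each of these.

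Other members with separated pools were the chaperone gene Cryab, which is also abundant in muscle (1.96), the membrane proteolipid gene Mal (1.88), Ndrg1 (1.64) and the tight junction gene Cldn19 (1.63). Mag, the adhesion molecule of the inner myelin face, differed by 1.32, and Cnp, a phosphodiesterase of non-compact myelin, by 1.21. Gjb1, the Schwann cell gap junction protein connexin 32, differed by 0.64 with overlapping pools. Genes known mainly from the central myelin of oligodendrocytes did not pass. Mobp had 25, 35.8 and 52 in nerve pools and 29.5, 39.5 and 43.6 in ganglion pools. Mog had 8.68, 11.3 and 26.3 in nerve pools and 8.91, 16 and 26.9 in ganglion pools, and Cldn11 had 16.9, 33.3 and 48.5 in nerve pools and 20, 32.8 and 50.2 in ganglion pools. Tspan2 was the member lower in nerve (-0.59).

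The summed signal of the myelin list was 23923, 26542 and 28785 in nerve pools and 12440.4, 13858 and 17955 in ganglion pools. The highest ganglion value belonged to the naive ipsilateral L5 pool, which also had the highest ganglion signal of Prx (1812) and of muscle genes (given below).

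Genes of the Schwann cell lineage and of its contact with axons were called in both directions. Of 20 tested, 8 were higher and 8 lower, with a median of 0.18 that was -0.43 on the deposited scale. Over all genes tested, 31.9% were higher and 25.4% lower in nerve. The genes higher in nerve included the basal lamina and its receptors. Lama2, a chain of the laminin around Schwann cells and muscle fibres, had 373, 436 and 577 in nerve pools and 88.7, 101 and 133 in ganglion pools, a difference of 2.08 (SE 0.11, adjusted p = 3.29e-06). Itga6, a laminin receptor chain, had 605, 661 and 817 in nerve pools and 124, 159.8 and 192 in ganglion pools, a difference of 2.06 (SE 0.11, adjusted p = 2.38e-06). Its partner Itgb4 differed by 1.21, the laminin chain Lamb2 by 2.28, and the glial transcription factor Sox10 by 0.81. S100b, a calcium-binding protein of Schwann cells, differed by 0.53 with overlapping pools. Dag1, a laminin receptor, differed by 1.17 on its brighter probe set, but its other probe set was called lower in nerve.

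The genes lower in nerve included axonal and glial ones. Nrg1, the axonal growth factor that signals to Schwann cells, had 4.61, 6.49 and 18.4 in nerve pools and 128, 220.4 and 288 in ganglion pools, a difference of -4.00 (SE 0.16, adjusted p = 7.66e-07). Cntn1, an axonal adhesion molecule of the paranode, had 2.31, 2.85 and 5.16 in nerve pools and 52.7, 212 and 294 in ganglion pools, a difference of -4.48 (SE 0.18, adjusted p = 6.88e-07). Its partner Cntnap1 differed by -2.17, and the axonal adhesion gene L1cam by -1.85. Ngfr, the low-affinity neurotrophin receptor of sensory neurons and of non-myelinating or immature Schwann cells, had 73.8, 94.7 and 119 in nerve pools and 778, 909 and 1077 in ganglion pools, a difference of -3.17 (SE 0.11, adjusted p = 3.95e-07). Foxd3, a neural crest and glial precursor factor, was also lower in nerve (-1.02), as was Erbb3, the neuregulin receptor (-0.57), with overlapping pools. Its co-receptor Erbb2 did not pass (0.28, adjusted p = 0.217).

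Neuronal cytoskeleton and pan-neuronal genes were lower in nerve almost without exception. Of 35 tested, 34 were lower in nerve, none was higher and 1 (Dpysl3) did not pass. In 31 of them every nerve pool was below every ganglion pool, and the median difference was -3.02. Nefh, the heavy neurofilament chain of large myelinated neurons, had 1.18, 8.49 and 18.5 in nerve pools and 3092, 3427 and 3844 in ganglion pools. No nerve pool came near a ganglion pool, and the difference of -8.13 (SE 0.13, adjusted p = 4.42e-08) was the most negative of the genes named by size. The difference was -8.17 in naive rats with gabapentin, -8.38 in sham-operated rats and -7.83 in naive rats.

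Nefm, the medium neurofilament chain, had 20.1, 38.5 and 61 in nerve pools and 4038, 4524 and 4744 in ganglion pools, a difference of -6.72 (SE 0.18, adjusted p = 1.76e-07). Prph (peripherin, the intermediate filament of small sensory neurons) had 25.3, 27.4 and 45.7 in nerve pools and 2252, 2516 and 2709 in ganglion pools, a difference of -6.12 (SE 0.11, adjusted p = 6e-08). Stmn2, a regulator of growth cone microtubules, had 16.7, 21.1 and 24.1 in nerve pools and 1239.9, 1574 and 1733 in ganglion pools, a difference of -5.93 (SE 0.11, adjusted p = 6.18e-08). In each of these the 6 nerve pools were all below the ganglion pools.

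The neuronal tubulin gene Tubb3 differed by -5.63, the synuclein gene Sncb by -5.62 and the neuronal nuclear protein gene Rbfox3 by -4.61. Uchl1, the abundant neuronal ubiquitin hydrolase, had 139.8, 176 and 246 in nerve pools and 2831, 3058 and 3486 in ganglion pools, a difference of -4.08 (SE 0.11, adjusted p = 1.57e-07). Sncg, a synuclein of sensory neurons, had a smaller difference of -1.87, with 875, 1200.3 and 1408 in nerve pools and 4084, 4268 and 4524 in ganglion pools. Tuba4a, a tubulin gene also expressed in muscle, differed by -4.29, and its nerve signal was 94.4 in the naive contralateral pool, the pool brightest in muscle genes, against 4.48 to 37.7 in the other nerve pools. The summed signal of the list was 4279, 4612 and 5390.5 in nerve pools and 44412, 45363 and 47449 in ganglion pools.

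Genes that give sensory neurons their identity and transmitters followed. Of 29 tested, 22 were lower in nerve, 2 higher and 5 not past, with a median of -1.94. Calca, which encodes the vasodilator peptide CGRP of nociceptors, had 3.48, 6.06 and 13.7 in nerve pools and 1009, 1229 and 1664 in ganglion pools. The nerve pools were near the bottom of the array scale and all below the ganglia, with a difference of -6.65 (SE 0.18, adjusted p = 1.84e-07). Tac1, the precursor of substance P, had 15.9, 22.2 and 27.1 in nerve pools and 821, 1082 and 1506 in ganglion pools, a difference of -5.26 (SE 0.13, adjusted p = 1.54e-07). Sst, the precursor of the peptide somatostatin, differed by -5.46, Calcb, a second CGRP gene, by -5.38, and Avil, the sensory neuron actin-binding protein advillin, by -5.81.

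Receptors of nociceptors were lower in nerve too. Trpv1, the capsaicin and heat channel, had 16.9, 21.2 and 38 in nerve pools and 99.2, 109.7 and 123 in ganglion pools, a difference of -2.05 (SE 0.14, adjusted p = 1.03e-05). P2rx3, an ATP-gated channel, differed by -3.75, and the serotonin-gated channel Htr3a by -3.21. The transcription factors Isl2 (-3.92) and Isl1 (-1.94) of sensory neurons were lower in nerve as well.

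The 2 members higher in nerve were Ntrk3, the receptor for neurotrophin-3, and Spp1 (osteopontin, a secreted matrix protein that Schwann cells also make). Ntrk3 had 72, 122 and 346 in nerve pools and 24.4, 32 and 67.5 in ganglion pools, a difference of 1.73 (SE 0.24, adjusted p = 0.000408), and its highest nerve value was in the naive ipsilateral pool. Spp1 had 1801, 2017 and 2380.3 in nerve pools and 1354, 1589 and 1785 in ganglion pools, a difference of 0.35 (SE 0.10, adjusted p = 0.021). The Spp1 difference missed the threshold in 10 of 27 alternatives. Pvalb (parvalbumin), a calcium buffer of both proprioceptive neurons and fast muscle fibres, did not pass: it had 411, 634 and 2651 in nerve pools and 411, 556 and 784 in ganglion pools (adjusted p = 0.104). Its highest nerve values, 2651 and 964, were in the contralateral and ipsilateral naive pools, which also had the most muscle signal.

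Voltage-gated sodium channels carry the action potential. Of 10 tested, 7 were lower and none higher in nerve, and with L5 ganglia alone 4 of 7 were lower. Scn10a, the nociceptor channel Nav1.8, had 1.09, 1.71 and 15.5 in nerve pools and 268, 341 and 385 in ganglion pools, a difference of -5.27 (SE 0.15, adjusted p = 1.84e-07). Scn11a (Nav1.9) differed by -5.50, Scn1a (Nav1.1) by -4.46, the beta subunit Scn4b by -3.85, and Scn9a (Nav1.7) by -1.47. Scn7a, an atypical channel of glia and neurons, did not pass and was bright in both tissues, with 474, 630.2 and 715 in nerve pools and 418, 579 and 715 in ganglion pools.

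Of 28 potassium channel genes tested, 17 were lower and 1 higher in nerve; with L5 ganglia alone 9 of 19 tested were lower. The largest differences toward ganglia were in the A-type channel Kcnd1 (-4.19), the modifier subunit Kcns1 (-4.06) and the beta subunits Kcnab2 (-3.19) and Kcnab1 (-2.87). Kcna1, the juxtaparanodal channel of myelinated axons, had 104, 130.4 and 231 in nerve pools and 106, 399 and 607 in ganglion pools, a difference of -1.40 (SE 0.12, adjusted p = 2.56e-05) with overlapping pools. Kcnj8, a channel subunit of vascular smooth muscle and pericytes, was the 1 higher in nerve (1.42).

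Of 10 calcium channel genes tested, 4 were lower and 1 higher, against 25.4% lower and 31.9% higher of all genes tested. Only 2 were lower without the contralateral nerve pool of naive rats with gabapentin, without the sham-operated pools, with median scaling, and with L4 ganglia or ipsilateral pools alone; 7 were lower on the deposited scale and none with muscle signal as a covariate. Cacna1b, the N-type channel of nerve terminals, had 12.1, 49.5 and 52.7 in nerve pools and 75.8, 87.2 and 116 in ganglion pools, a difference of -1.17 (SE 0.18, adjusted p = 0.000865) that was 0.053 on the log2 scale with muscle signal as a covariate. The muscle signal of the pools separates the tissues itself, so that fit cannot tell muscle and tissue apart. Cacna1c, the L-type channel of smooth and heart muscle, had 177, 210.1 and 219 in nerve pools and 55.6, 64.5 and 111 in ganglion pools, a difference of 1.56 (SE 0.12, adjusted p = 2.04e-05). Cacna2d1, the subunit that binds gabapentin, did not pass, with 20.1, 45.2 and 113 in nerve pools and 51.6, 67.6 and 91.5 in ganglion pools (adjusted p = 0.356). That subunit is also part of the muscle channel, and its 2 highest nerve values, 113 and 112, were in the naive pools.

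Synaptic vesicle and exocytosis genes had a median difference of -3.20, with 30 of 32 lower and 1 higher in nerve. Snap25, a core protein of vesicle fusion, had 8.81, 15.7 and 24.7 in nerve pools and 1032, 1592 and 1961 in ganglion pools, a difference of -6.30 (SE 0.12, adjusted p = 6.58e-08). The secretory granule genes Chgb (-5.27), Scg5 (-5.24) and Scg2 (-5.05), the vesicle protein Syn1 (-4.78) and the glutamate transporter Slc17a6 (-4.74) had separated pools as well. Sypl1, a relative of synaptophysin found in many cell types, was higher in nerve (1.45).

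Of 19 glutamate and GABA receptor genes tested, 10 were lower (18 on the deposited scale) and none higher in nerve, led by the GABA-B subunit Gabbr2 (-3.73) and the kainate receptor Grik1 (-3.60). The other GABA-B subunit gene, Gabbr1, differed by -0.92 on its brightest probe set, while 2 of its 6 probe sets were called higher in nerve.

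Motors that carry cargo along axons were lower in nerve in 15 of 17 genes, higher in 1. Kif5a, a neuronal kinesin, had 19.7, 36.2 and 41.9 in nerve pools and 346, 641 and 742 in ganglion pools, a difference of -4.01 (SE 0.12, adjusted p = 2.35e-07). The dynein chain Dync1i1 (-4.59) and the kinesin gene Kif5c (-4.01) had like differences. Kif5b, the kinesin of many cell types, was the member higher in nerve (0.44), and it was -0.28 on the deposited scale. Klc1, the kinesin light chain, differed by -4.47 on its brightest probe set, with 4 of its 5 probe sets called lower and 1 higher.

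**Figure D3:**
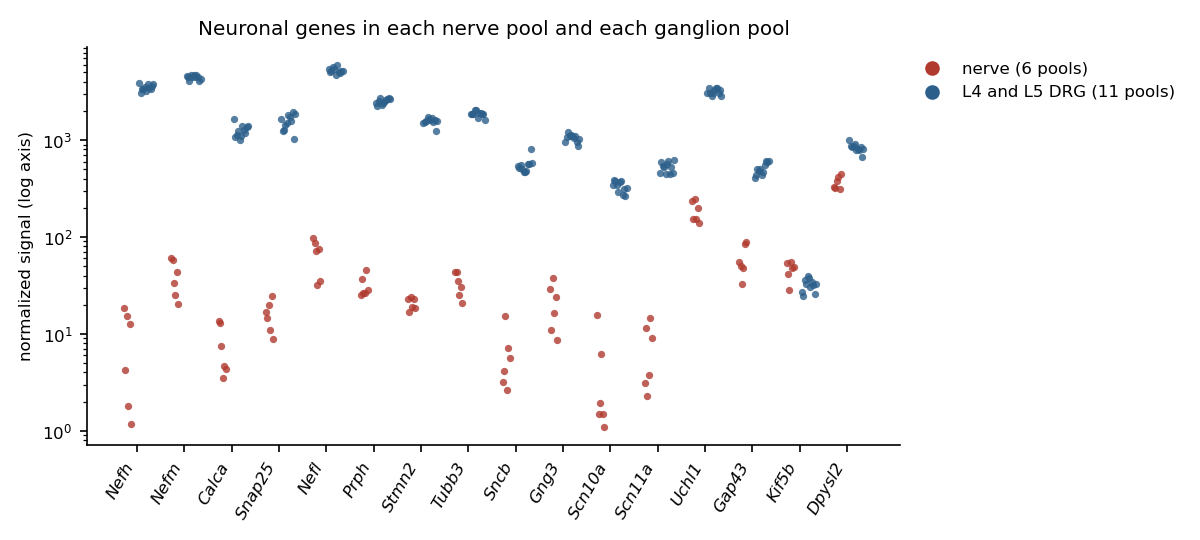
Normalized signal (log axis) of 16 neuronal and transport genes, with a point for each of the 6 nerve pools left of the 11 ganglion pools of the same gene. For all but Kif5b the nerve pools lie below the ganglion pools, by the widest margin for Nefh (18.5 at most in nerve pools and 3092 at least in ganglion pools).

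Skeletal muscle genes were present in the nerve pools at high signal. Of 56 muscle genes on the arrays, 47 were tested, of which 36 were higher, 2 lower and 9 not past, with a median difference of 2.62. In 30 of them every nerve pool was above every ganglion pool. The count depends on which pools enter and on how many, since the filter asks for signal in 6 pools: without the naive pools 29 were tested, of which 19 were higher and 3 lower, with a median of 1.99. With ipsilateral pools alone 21 of 32 were higher, and with contralateral pools alone 16 of 25. Tnnc2, the calcium-binding troponin of fast fibres, had 909, 1268 and 3752 in nerve pools and 2.98, 12.9 and 320.0 in ganglion pools, a difference of 5.84 (SE 0.31, adjusted p = 2.73e-06). Tnni2, the inhibitory troponin of fast fibres, had 402, 554 and 2146 in nerve pools and 1.89, 3.95 and 109 in ganglion pools, a difference of 5.55 (SE 0.23, adjusted p = 9.03e-07). Atp2a1, the calcium pump of fast fibres, had 675, 1239 and 4038 in nerve pools and 4.72, 13.7 and 534 in ganglion pools, a difference of 5.44 (SE 0.18, adjusted p = 3.62e-07). The lowest nerve value of each exceeded the highest ganglion value, which for all 3 genes is the naive ipsilateral L5 pool.

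The fast troponin Tnnt3 (5.43), the muscle enolase Eno3 (5.61), the fast alpha-actinin Actn3 (5.19), the light chain Myl11 (5.24), the filament gene Ttn (5.18) and the oxygen store myoglobin (Mb, 4.90) had differences of similar size. Acta1, the skeletal actin, had 1619, 2387 and 5939 in nerve pools and 55.1, 98.1 and 1320.1 in ganglion pools, a difference of 4.00 (SE 0.17, adjusted p = 8.86e-07). Differences among myosins and slow-fibre genes varied. The fast myosin Myh1 did not pass (0.03), the fast myosin Myh4 was higher in nerve by only 0.61 with overlapping pools, and the myosin-binding gene Mybpc1, known from slow fibres, was higher in nerve (2.14) with overlapping pools. The slow troponin Tnni1 had 10.4, 18 and 21.1 in nerve pools and 4.09, 12.7 and 21.7 in ganglion pools, and Tnnt1 had 7.85, 11.8 and 16.2 in nerve pools and 9.69, 13.2 and 21.5 in ganglion pools, neither past the threshold. Tnnc1, the troponin of slow and heart muscle, was lower in nerve (-0.63, a difference that was 0.071 with muscle signal as a covariate). Tnnc1 is itself among the genes averaged into that muscle signal. The slow myosin Myh7 was higher in nerve (1.18), at signals of 51.5, 61.5 and 83.8 in nerve pools and 10.6, 24.6 and 48.9 in ganglion pools. Myod1 and Myog, transcription factors of muscle precursors, were not tested because they did not pass the signal filter.

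Muscle signal varied between nerve pools. Ckm, the muscle creatine kinase, had 2820.3 and 1664 in the ipsilateral and contralateral nerves of naive rats with gabapentin, 1936 and 1085 in those of sham-operated rats, and 4744 and 6147 in those of naive rats. In ganglion pools it had 31.9, 48.9 and 787, where the highest value is the naive ipsilateral L5 pool. All nerve pools were above all ganglion pools, and the difference was 4.90 (SE 0.13, adjusted p = 1.57e-07). The difference was 4.61 in naive rats with gabapentin, 4.95 in sham-operated rats and 5.13 in naive rats.

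The summed muscle signal was 15389.7, 19503 and 60653 in nerve pools, with the highest value in the naive contralateral pool and 37627 in the naive ipsilateral pool. In ganglion pools it was 3334, 3873 and 8787, and the next highest ganglion pool after the naive ipsilateral L5 pool had 4639. Of the 47 members, 42 were highest among nerves in the naive contralateral pool. The median SD between nerve pools was 0.95 on the log2 scale for muscle genes and 0.29 for all probe sets kept. With the muscle score of each pool as a covariate in a fit of all 17 pools, 2 muscle genes were higher and 3 lower in nerve, myelin genes 7 higher and 0 lower of 22, and pan-neuronal genes 0 higher and 27 lower of 35. That score is the mean of the muscle genes themselves, so their own loss of calls was fixed in advance and shows nothing about them. It also separates the tissues, so the covariate and tissue share most of their variation.

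Fat genes were also higher in nerve. Of 33 adipocyte genes tested, 23 were higher, 1 lower and 9 not past, with a median of 1.05; on the deposited scale 15 were higher. Fabp4, the fatty acid carrier of adipocytes and capillary endothelium, had 502, 557 and 1284 in nerve pools and 0.376, 1.82 and 14.6 in ganglion pools, a difference of 6.44 (SE 0.23, adjusted p = 4.23e-07). Adipoq, the adipocyte hormone adiponectin, had 298, 423 and 786 in nerve pools and 0.576, 1.14 and 2.00 in ganglion pools, a difference of 6.09 (SE 0.19, adjusted p = 2.67e-07). Cfd, the adipocyte protease adipsin (complement factor D), had 936, 1157 and 2320.1 in nerve pools and 3.85, 23 and 46.4 in ganglion pools, a difference of 5.87 (SE 0.18, adjusted p = 2.49e-07). The ganglion pools were at or near the bottom of the array scale for Adipoq and Fabp4, and the pools were separated for each.

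Lipid handling genes were higher in nerve too: the lipoprotein lipase Lpl (4.16), the glycerol-supplying enzyme Pck1 (3.18), the adipocyte transcription factor Pparg (2.79), the triglyceride synthesis enzymes Dgat2 (2.52) and Agpat2 (2.92), and the insulin-regulated glucose transporter Slc2a4 (2.18), which muscle also uses. Lep, the hormone leptin, did not pass, with 242, 346 and 409 in nerve pools and 353, 419 and 545 in ganglion pools. Gpam, a glycerol phosphate acyltransferase, was lower in nerve (-1.93). Enzymes of fatty acid synthesis, which Schwann cells also need, had smaller differences, among them Fasn (0.87, with 1 of 3 probe sets called lower) and Acaca (1.12). Acly, which makes their precursor, did not pass (0.08).

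The nerve pool with the most muscle signal had the least fat signal. The summed adipocyte signal was 11294, 13045 and 14935 in nerve pools, where the lowest value is the naive contralateral pool, and 5397, 6113 and 6852 in ganglion pools. Adipoq differed by 6.01 in naive rats with gabapentin, 6.62 in sham-operated rats and 5.65 in naive rats. The share of muscle or fat in the other gene groups' differences was not tested, since the covariate fit cannot tell muscle signal and tissue apart.

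**Figure D4:**
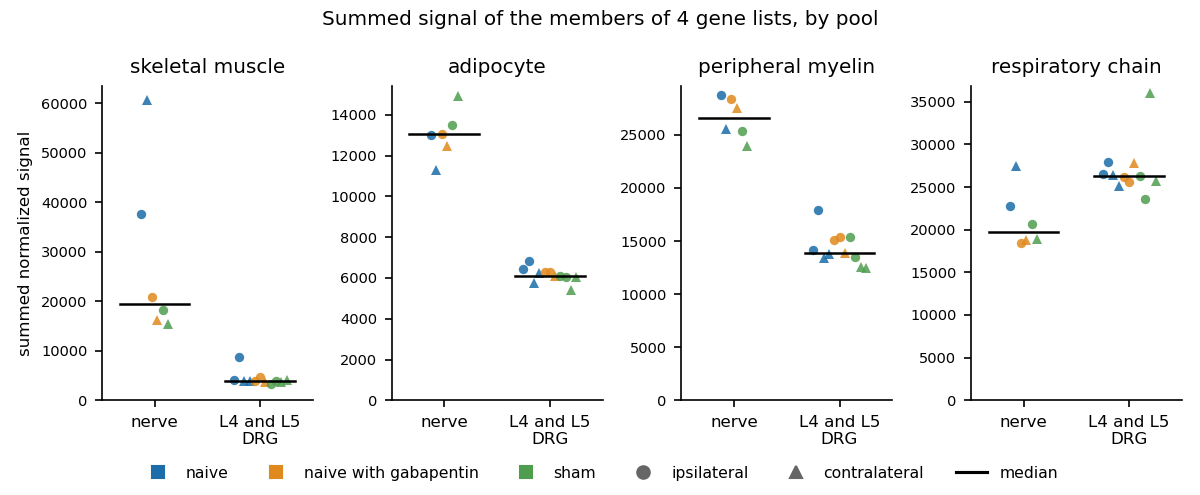
Summed normalized signal, on linear axes from 0, of the skeletal muscle, adipocyte, peripheral myelin and respiratory chain lists, with the 6 nerve pools left of the 11 ganglion pools, colours for treatments, symbols for sides and bars at the median. Muscle reaches 60653 in the naive contralateral nerve pool against 15389.7 in the sham contralateral one, and the naive ipsilateral L5 pool is the highest ganglion pool for muscle and myelin.

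Promoters of 4 genes described in the text are given because muscle regulatory factors are known to bind E-boxes: Ckm for muscle, Adipoq for fat, Prx for myelinating Schwann cells and Calca for sensory neurons. They were chosen, after their values were seen, as familiar markers with a promoter in the table and not by the size of their differences. Fabp4, Tnnt3, Nefh and Nefl have no entry in it. Each is 300 bases of the RefSeq assembly GRCr8, from 250 bases before the annotated start to 50 after it, read 5′ to 3′ on the gene's strand, with capitals marking the E-box CAGCTG, which reads the same on both strands. Ckm lies at chr1:88189211-88189510 on the plus strand, Adipoq at chr11:91240120-91240419 on the minus strand, Prx at chr1:91914171-91914470 on the plus strand and Calca at chr1:178317480-178317779 on the minus strand.
Ckm: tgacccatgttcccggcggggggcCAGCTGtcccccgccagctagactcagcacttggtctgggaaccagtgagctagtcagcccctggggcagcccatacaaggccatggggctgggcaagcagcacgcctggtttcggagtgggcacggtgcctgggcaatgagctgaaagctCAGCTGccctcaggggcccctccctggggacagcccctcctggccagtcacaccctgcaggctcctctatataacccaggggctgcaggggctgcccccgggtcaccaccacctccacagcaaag
Adipoq: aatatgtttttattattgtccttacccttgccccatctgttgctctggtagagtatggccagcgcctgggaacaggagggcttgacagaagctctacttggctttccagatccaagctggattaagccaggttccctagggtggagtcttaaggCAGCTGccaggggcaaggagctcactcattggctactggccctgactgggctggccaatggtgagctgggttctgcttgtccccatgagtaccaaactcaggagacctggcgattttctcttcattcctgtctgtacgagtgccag
Prx: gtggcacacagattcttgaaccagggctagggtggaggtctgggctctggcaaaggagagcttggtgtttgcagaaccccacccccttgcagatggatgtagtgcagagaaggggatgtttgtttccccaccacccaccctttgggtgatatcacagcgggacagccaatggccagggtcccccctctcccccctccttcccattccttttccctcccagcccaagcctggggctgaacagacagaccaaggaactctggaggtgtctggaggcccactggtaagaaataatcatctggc
Calca: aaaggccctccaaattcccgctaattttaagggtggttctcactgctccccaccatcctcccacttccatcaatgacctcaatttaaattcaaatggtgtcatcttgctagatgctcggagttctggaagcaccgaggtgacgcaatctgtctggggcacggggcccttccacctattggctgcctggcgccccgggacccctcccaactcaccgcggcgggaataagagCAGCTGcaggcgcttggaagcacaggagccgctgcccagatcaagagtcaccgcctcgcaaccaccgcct
The Ckm promoter holds 2 such motifs, beginning 226 and 75 bases before the start, Adipoq holds 1 at 96 bases and Calca 1 at 20 bases, and the Prx window holds none. Of all 27457 promoters of this length, 4134 (15.1%) hold the motif. Among the 25 lists the share ranged between 0 of 9 perineurial promoters and 8 of 19 macrophage promoters (42.1%). It was 18 of 47 for muscle (38.3%), 6 of 26 for adipocyte genes (23.1%) and 4 of 24 for myelin (16.7%). Lists with mostly lower calls in nerve were spread too, with 4 of 10 sodium channel promoters (40%), 10 of 35 synaptic vesicle promoters (28.6%), 7 of 35 sensory neuron promoters (20%) and 3 of 23 pan-neuronal promoters (13.0%). A match of 6 letters is a description of the sequence and not of binding, and 547 of 765 list genes had a promoter in the table.

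Connective tissue genes were the list with the most members higher in nerve, and also the list with the most members tested. Of 63 fibroblast and collagen matrix genes tested, 50 were higher, 4 lower and 9 not past, with a median of 1.81. Postn (periostin, a matrix protein of connective tissue) had 88.2, 269 and 702 in nerve pools and 5.23, 7.74 and 12.5 in ganglion pools, a difference of 4.40 (SE 0.34, adjusted p = 1.75e-05). Its 2 highest nerve values, 702 and 546, were in the sham-operated pools. Fbn1, the microfibril protein fibrillin, had 385, 552 and 984 in nerve pools and 31.3, 54.7 and 64.3 in ganglion pools, a difference of 3.47 (SE 0.19, adjusted p = 3.44e-06). Col3a1, a fibrillar collagen, had 4268, 4937 and 5607 in nerve pools and 436, 731 and 1067 in ganglion pools, a difference of 2.71 (SE 0.13, adjusted p = 1.53e-06).

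Sfrp4, a secreted Wnt modulator, differed by 4.24, Aebp1, a collagen-binding protein, by 3.60, the collagen cross-linking enzyme Lox by 3.24, fibronectin (Fn1) by 2.87 and the fibroblast receptor Pdgfra by 2.58. Col1a1, the main fibrillar collagen, had a smaller difference of 0.77, with 2664, 2966 and 3175 in nerve pools and 1348, 1724 and 2111 in ganglion pools. The basement membrane chains Col4a1 (1.81) and Col4a2 (2.14) and the linker Nid1 (1.76) were higher in nerve as well.

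The 4 members lower in nerve were Scx, a tendon transcription factor (-1.24), Sparc, a collagen-binding glycoprotein (-0.73), Fbln2, a fibulin (-0.58), and Col11a1 (-0.44). For Sparc, 6 of 7 probe sets were called higher and only the brightest lower, and its mean over probe sets was 1.65. For Col11a1, 2 of 3 were called higher and the mean was 0.96, so the probe sets of both genes disagree.

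Perineurial and barrier genes were higher in nerve in 7 of 8 tested. Only 4 of 7 were higher without the naive ipsilateral nerve pool, 4 of 6 without the pools of naive rats with gabapentin and 4 of 5 with contralateral pools alone. Cldn1, the tight junction protein of the perineurium, had 50.9, 88.5 and 146 in nerve pools and 5.14, 26.5 and 36.9 in ganglion pools, a difference of 1.60 (SE 0.22, adjusted p = 0.000437). Krt19, a keratin best known from epithelia, had 42.4, 92.2 and 104 in nerve pools and 1.29, 12.4 and 15.5 in ganglion pools, a difference of 2.51 (SE 0.27, adjusted p = 0.00011). Slc2a1, the glucose transporter of the perineurium and barrier endothelium, had 573, 853 and 979 in nerve pools and 212, 319 and 427 in ganglion pools, a difference of 1.34 (SE 0.17, adjusted p = 0.000269). The junction genes Tjp1 (1.65) and Cldn5 (1.82), of which Cldn5 belongs to endothelium, were also separated. Cldn3 was lower in nerve (-1.02, a difference that was 0.21 with the Gapdh ratio as a covariate), at signals of 5.38, 7.15 and 34.4 in nerve pools and 5.82, 25.9 and 52.7 in ganglion pools.

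Vessel genes were higher in nerve in 17 of 18 tested, with a median of 1.25; on the deposited scale 11 were higher. Tagln, a smooth muscle actin-binding protein, had 291, 443 and 597 in nerve pools and 47.6, 70 and 102 in ganglion pools, a difference of 2.50 (SE 0.17, adjusted p = 1.1e-05). Kdr, the endothelial receptor for VEGF, had 48.4, 65.7 and 76.9 in nerve pools and 10.1, 13.6 and 20.2 in ganglion pools, a difference of 1.78 (SE 0.15, adjusted p = 2.77e-05). The smooth muscle actin Acta2 (2.29) and the endothelial cadherin Cdh5 (1.38) were separated between tissues. Abcc9, a channel partner of Kcnj8, did not pass (-0.35).

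Most blood genes were lower in nerve, a count that varied with the pools and the fit. Of 6 tested, 5 were lower in nerve, among them Hbb (beta globin, -0.59) and Alas2, the heme enzyme of red cells (-0.92). Their pools overlapped in all 6, and 3 were lower with median or trimmed mean scaling or without the treatment block. All 6 were lower on the deposited scale and without the pools of naive rats with gabapentin. They were also all lower in fits of all 17 pools with treatment as a factor or random block. Only 2 were lower without the sham-operated pools or without the contralateral nerve pool of naive rats with gabapentin, 3 without the naive contralateral nerve pool, and none with ipsilateral pools alone or with the muscle covariate. The muscle score behind that covariate separates the tissues itself.

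Macrophage and antigen presentation genes were higher in nerve in 19 of 22 tested and lower in none, with a median of 1.59. Cd163, the hemoglobin scavenger receptor of resident macrophages, had 48.5, 82 and 111 in nerve pools and 2.49, 6.68 and 12.7 in ganglion pools, a difference of 2.89 (SE 0.21, adjusted p = 1.38e-05). Cd74, the invariant chain of class II molecules, had 651, 838 and 1193 in nerve pools and 62.7, 111 and 265 in ganglion pools, a difference of 2.82 (SE 0.11, adjusted p = 5.79e-07), with 1 of its 6 probe sets called lower. Csf1r, the receptor that maintains macrophages, had 143, 168 and 303 in nerve pools and 30.7, 41.6 and 62.2 in ganglion pools, a difference of 2.10 (SE 0.16, adjusted p = 1.92e-05). The mannose receptor gene Mrc1 (1.96) and the class II chain RT1-Da (1.90) were separated too.

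The summed macrophage signal was 3846, 4923 and 7471 in nerve pools and 1508, 1709.6 and 2744 in ganglion pools. The 2 sham-operated nerve pools were the highest, at 7471 on the contralateral and 7176 on the ipsilateral side, and the 2 highest ganglion pools were the ipsilateral L5 (2744) and L4 (2357) pools of sham-operated rats. Cx3cr1, the fractalkine receptor, and the leukocyte gene Ptprc did not pass, at 12.6, 16.2 and 30.6 in nerve pools and 8.73, 15.4 and 26.8 in ganglion pools for Cx3cr1.

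Of 9 mast cell and lymphocyte genes tested, 4 were higher in nerve and 1 lower, against 31.9% and 25.4% of all genes tested. The 4 higher genes were mast cell proteases, while the proteases Mcpt1 and Mcpt4 and the lymphocyte genes were not called. Cpa3, the mast cell carboxypeptidase, had 37.2, 111 and 232 in nerve pools and 2.14, 3.12 and 11.4 in ganglion pools, a difference of 3.49 (SE 0.25, adjusted p = 1.25e-05). Cma1, a chymase, had 139, 247 and 280.2 in nerve pools and 6.78, 26.6 and 34.5 in ganglion pools, a difference of 2.96 (SE 0.16, adjusted p = 2.65e-06). The tryptase genes Tpsab1 (1.62) and Tpsb2 (0.38) were higher as well, though Tpsb2 was -0.14 on the deposited scale. Kit, the stem cell factor receptor of mast cells, which some sensory neurons also carry, was lower in nerve (-0.59). Cd3e, Cd3g, Cd4 and Lck of T cells did not pass, and 7 of 16 genes of the list on the arrays were not tested. The list's 4 higher genes became 2 without any 1 treatment or without the sham contralateral nerve pool, where fewer genes were tested.

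Complement genes were called in both directions. Of 21 tested, 12 were higher and 4 lower, against 31.9% and 25.4% of all genes tested. On the deposited scale 9 complement genes were higher and 8 lower. C1qb, a chain of the recognition molecule of the classical pathway, had 206, 311 and 469.8 in nerve pools and 4.95, 39 and 55.9 in ganglion pools, a difference of 3.08 (SE 0.19, adjusted p = 6.5e-06). C1s, its protease, had 302, 634 and 925 in nerve pools and 23.2, 44.1 and 97.9 in ganglion pools, a difference of 3.41 (SE 0.19, adjusted p = 4.24e-06). The second protease C1r (2.07), the C1 inhibitor Serping1 (2.10), C2 (1.55), factor B (Cfb, 2.00) and the membrane regulator Cr1l (1.05) were separated between tissues, and Cfd was described with the fat genes. C1qa differed by 1.85 and C1qc, the third chain, did not pass (0.26, adjusted p = 0.0969).

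The 4 genes lower in nerve were Cd55 (-1.48) and Cd59b (-1.02), which protect cell membranes from complement, the fluid-phase inhibitor clusterin (Clu, -1.19) and factor I (Cfi, -0.77). In each of them every nerve pool was below every ganglion pool.

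Immediate-early genes, which are transcribed within minutes of a stimulus, were higher in nerve in 18 of 22 tested and lower in 1, with a median of 1.33. Klf4, a transcription factor, had 224, 348 and 542 in nerve pools and 20.2, 27.4 and 37.3 in ganglion pools, a difference of 3.38 (SE 0.21, adjusted p = 5.89e-06). Fos had 199, 256 and 424 in nerve pools and 75.8, 99.3 and 106 in ganglion pools, a difference of 1.49 (SE 0.11, adjusted p = 1.61e-05), and all 5 of its probe sets were called higher. Egr1 (2.17), the phosphatase gene Dusp1 (2.52), Nr4a1 (1.69) and Atf3 (1.41) were separated, while Jun was not (0.64). Klf2, a factor of endothelium and lymphocytes, was lower in nerve (-0.75), a difference that was 0.076 with the Gapdh ratio as a covariate. The Fos difference was 1.39 in naive rats with gabapentin, 1.56 in sham-operated rats and 1.50 in naive rats. The Gapdh ratio was also higher in nerve pools. With it as a covariate in a fit of all 17 pools, 16 were higher and 0 lower. That ratio largely separates the tissues itself, so this fit cannot tell RNA integrity and tissue apart.

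Genes of satellite glia and astrocytes were mixed, 5 higher and 7 lower of 16 tested, against 31.9% higher and 25.4% lower of all genes tested. Fabp7, a fatty acid carrier of satellite glia and radial glia, had 0.265, 2.41 and 5.89 in nerve pools and 43.9, 63.3 and 126 in ganglion pools, a difference of -3.23 (SE 0.23, adjusted p = 1.27e-05). Apoe, the lipid carrier that satellite glia make in large amounts, had 2380.3, 3632 and 4268 in nerve pools and 4931, 5475 and 6829 in ganglion pools, a difference of -0.78 (SE 0.16, adjusted p = 0.0031). Every nerve pool was below every ganglion pool for both. The glycolytic enzyme gene Aldoc (-2.50) and the proteoglycan gene Bcan (-1.71) were lower in nerve too. The members higher in nerve were Slc1a3, a glutamate transporter of satellite glia and astrocytes (0.96), the gap junction gene Gja1 (1.60), the intermediate filament gene Vim (1.27), the chemokine gene Cxcl14 (2.93) and Glul, the glutamine synthetase used as a marker of satellite glia (0.59). Glul was at signals of 499.7, 592 and 751 in nerve pools and 216, 413 and 495 in ganglion pools. Kcnj10, the potassium channel of satellite glia, did not pass (-0.34).

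Growth factors were called in both directions, with 10 higher and 6 lower of 23 tested. Over all genes tested, 31.9% were higher and 25.4% lower in nerve. On the deposited scale 4 growth factors were higher and 9 lower. Cntf, the ciliary neurotrophic factor stored in myelinating Schwann cells, had 722, 845 and 1044 in nerve pools and 158, 215 and 306 in ganglion pools, a difference of 1.93 (SE 0.11, adjusted p = 3.83e-06). Igf1, a growth factor of many connective tissue cells, had 159, 236 and 333 in nerve pools and 28.8, 38.6 and 64.8 in ganglion pools, a difference of 2.33 (SE 0.19, adjusted p = 2.45e-05). Its binding protein gene Igfbp6, also in the fibroblast list, differed by 3.02. Among those lower in nerve were Fgf13, an intracellular partner of sodium channels (-5.22), the secreted neuronal protein Vgf (-2.19), pleiotrophin (Ptn, -1.46) and Nrg1, described above. Gdnf, Ntf3 and Bdnf, classical trophic factors of sensory neurons, did not pass, and Bdnf had probe sets called in both directions.

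Of 16 neurotrophic receptor genes tested, 8 were lower and 4 higher in nerve, against 25.4% lower and 31.9% higher of all genes tested. On the deposited scale 10 receptor genes were lower and 2 higher. Ret, the signalling receptor of the GDNF family, had 11.4, 16.6 and 37.4 in nerve pools and 270.3, 416 and 487 in ganglion pools, a difference of -4.06 (SE 0.13, adjusted p = 2.67e-07). Its co-receptors Gfra3 (-1.75) and Gfra2 (-1.06) were lower in nerve, and Gfra1 did not pass (-0.25). The interleukin 6 receptor chains Il6r (1.48) and Il6st (0.80) were higher in nerve, with separated pools, and Cntfr, the receptor chain for Cntf, was lower (-0.68).

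Cholesterol synthesis supplies the sterol of myelin, and most of its genes did not pass. Of 21 tested, 5 were higher and 2 lower in nerve, against 31.9% and 25.4% of all genes tested. The median was 0.17, and it was -0.35 on the deposited scale. Idi1, the isopentenyl isomerase, had 275, 696 and 778 in nerve pools and 164, 226 and 326 in ganglion pools, a difference of 1.27 (SE 0.21, adjusted p = 0.00108) with overlapping pools. Msmo1, a sterol demethylation enzyme, had 1013, 1140.4 and 1384 in nerve pools and 525, 597 and 729.6 in ganglion pools, a difference of 0.92 (SE 0.12, adjusted p = 0.000326) with separated pools. Fdps, which makes farnesyl diphosphate, was lower in nerve (-0.72). Sqle and Dhcr7, which act later in the pathway, had differences of 0.12 and -0.06 and did not pass. Lss, Cyp51 and Fdft1 had probe sets called in both directions.

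Respiratory chain genes were lower in nerve in 16 of 39 tested and higher in 2, with a median of -0.26. Of all genes tested, 25.4% were lower and 31.9% higher. With median scaling 10 respiratory chain genes were lower, and 28 were lower on the deposited scale. The count was 25 without the naive pools, 9 without the pools of naive rats with gabapentin and 10 without the sham-operated pools. Atp5f1d, a subunit of the ATP synthase, had 162, 258 and 377 in nerve pools and 738, 943 and 1135 in ganglion pools, a difference of -1.88 (SE 0.14, adjusted p = 1.5e-05). Cox6a1, the cytochrome oxidase subunit of non-muscle tissue, had 1067, 1295 and 1432 in nerve pools and 1881, 2303 and 3209 in ganglion pools, a difference of -0.87 (SE 0.11, adjusted p = 0.000225). Every nerve pool was below every ganglion pool for both. Muscle forms of cytochrome oxidase subunits, Cox6a2 (2.50) and Cox8b (3.06), were higher in nerve and counted with the muscle list.

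The summed respiratory chain signal was 18483, 19748 and 27440.4 in nerve pools and 23627, 26340.2 and 35966 in ganglion pools. The naive contralateral nerve pool was the highest nerve pool for 32 of the 39 members, and it was also the pool with the most muscle signal. In the fit with the muscle score as a covariate, 15 were lower and 0 higher, with a median of -0.87. Because the score separates the tissues, this fit cannot tell muscle and tissue apart. The sham contralateral L4 pool, which had the highest Gapdh ratio among ganglia, held the highest ganglion sum.

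Set beside uninjured spinal cord (6 pools) and brain (3 pools) that were normalized together with the nerve and ganglion pools, the nerve genes divided further. The median of Prx was 3841 in nerve pools, 1147 in ganglion pools, 889.8 in cord pools and 20.3 in brain pools. Mobp, the central myelin gene, was at 38.9 in nerve pools, 42.8 in ganglion pools, 983 in cord pools and 380.2 in brain pools. Ugt8, used by both kinds of myelin, was at 1746 in nerve pools, 475 in ganglion pools, 1743 in cord pools and 431 in brain pools. Prx had its lowest pools in brain and Mobp had its lowest pools in both peripheral tissues.

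The muscle and fat genes Tnni2 and Adipoq were brightest in nerve pools among these 4 tissues. Tnni2 had a median of 532 in nerve pools, 4.42 in ganglion pools, 2.13 in cord pools and 2.73 in brain pools. Adipoq was at 421 in nerve pools, 1.40 in ganglion pools, 1.35 in cord pools and 1.75 in brain pools. Klf4 was at 338 in nerve pools, 29.4 in ganglion pools, 41.5 in cord pools and 33.1 in brain pools. Its ganglion, cord and brain ranges overlapped, and its nerve range of 222 to 521 lay above all of them.

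Among ganglion genes, Scn10a was at 1.95 in nerve pools, 332 in ganglion pools, 11.8 in cord pools and 2.07 in brain pools. Nefh was at 9.34 in nerve pools, 3333 in ganglion pools, 1946 in cord pools and 309 in brain pools. Snap25 was brighter in cord and brain than in ganglia, with 17.7 in nerve pools, 1634 in ganglion pools, 1985 in cord pools and 2937 in brain pools. These levels are descriptions without a test.

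**Figure D5:**
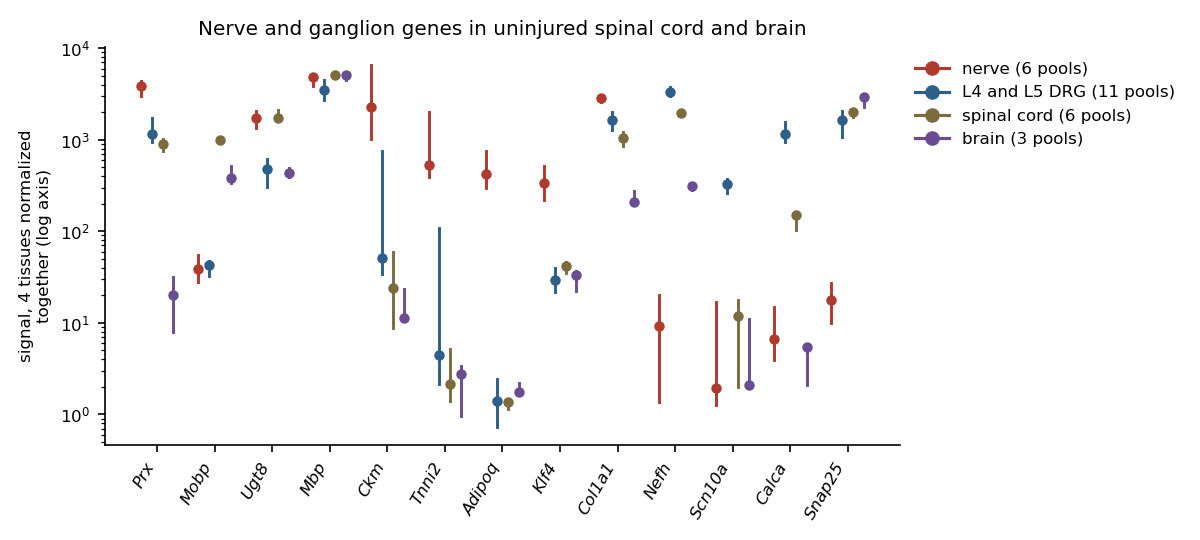
Signal (log axis) of 13 genes in uninjured nerve, ganglion, spinal cord and brain pools, normalized together, with a point at the median and a line from the lowest to the highest pool. Tnni2 and Adipoq are bright in nerve pools, Mobp in cord and brain pools, and Scn10a in ganglion pools.

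The nerve to ganglion difference was also compared between sides. Of 17088 probe sets, none (0%) had a difference that depended on side by limma at an adjusted p under 0.05, with a lowest adjusted p of 0.82 and 319 probe sets at an unadjusted p under 0.05. A fit of all 17 pools as separate samples gave 1 at the adjusted and 1386 at the unadjusted threshold.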

How the data were processed

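The deposited values are linear array signal intensities of each probe set, made by the authors with MAS5 per the submitters' processing notes; the sources used here give neither its version nor a scaling target, and no detection calls were used. From them, for each of the 3 arrays, the signals of the 17 pools were quantile normalized and log2(signal + pseudocount) was taken, with the 20th percentile as pseudocount (5.17 on array A, 4.51 on B and 5.30 on C). Probe sets were kept if they exceeded the array's 40th percentile in at least 6 of 17 pools. Pools were averaged to 1 nerve and 1 ganglion value per treatment (the ganglion value being the mean of the L4 and L5 means) and compared with limma 3.58.1 in R 4.3.3 (lmFit and eBayes with a mean-variance trend), two-sided, with treatment as a block and Benjamini-Hochberg adjustment over the 17088 probe sets kept of 26379 deposited, where the deposited ones include 177 control probe sets. Nerve and ganglia of a treatment share its rats' treatment and possibly the rats, which is the reason for the block.

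Of the probe sets, 18178 had 1 symbol in the platform annotation, 391 had several and 7633 none; 18122 were updated through the RefSeq table of GRCr8, used for names only. A gene is the probe set with the highest mean over the 17 pools. Genes were named by 1 rule: the 4 markers, the 15 with the largest difference in each direction among called genes whose pools do not overlap and whose mean signal in the higher tissue exceeds 4 times the pseudocount, up to 4 called members per list and direction, and other list members where the list is accounted for. The members and lists were chosen with earlier results of these data known. The number of arrays limits the precision, and the alternatives tried were other scalings, pseudocounts and filters, fits of all pools, single levels and sides, pools left out, and covariates for muscle signal and the Gapdh ratio.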

Additional observations from a re-analysis of the deposited data

Results flagged for a closer look

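The gap between 1 nerve pool and the nearest other was taken on the log2 scale, as a share of the range of all 6. It exceeded Dixon's critical value in 8 of 177 genes and list values examined, where chance gives about 5%. The signals printed here are linear. Fabp4 was at 1284 in the sham contralateral nerve pool and at 502 to 709 in the other nerve pools. Cldn3 was at 34.4 in the ipsilateral nerve pool of naive rats with gabapentin and at 5.38 to 11.5 in the others, a low signal throughout. In that same pool Cacna1c was low, at 177 against 203 to 219, and Idi1 was low, at 275 against 543 to 778. Kcns1 was at 7.35 in the sham ipsilateral nerve pool and at 1.68 to 3.09 in the others, where signals are near the bottom of the array scale. Gfra2 was low in the sham ipsilateral pool, at 43.1 against 79.1 to 94.3. Gfra3 was low in the contralateral nerve pool of naive rats with gabapentin, at 18.4 against 26.9 to 32.0. Fgf13 was at 17.5 in the naive contralateral nerve pool and at 5.52 to 7.80 in the others. For Kcns1, Gfra3, Gfra2 and Fgf13 the pool that stood apart was still below every ganglion pool, and for Fabp4 and Cacna1c it was still above every ganglion pool.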

How the results depend on the processing

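The main counts were 4845 probe sets higher and 4674 lower in nerve. They stayed within 1.5 times under median and trimmed mean scaling, 2 other pseudocounts, no filter, fits of all 17 pools, each ganglion level alone and contralateral pools alone. They moved further in 3 alternatives: 1885 higher and 9280 lower on the deposited scale, 3164 higher with ipsilateral pools alone (where fewer pools enter), and 1570 higher and 1618 lower with the muscle covariate, whose score separates the tissues. Leaving out 1 treatment gave 3622 to 4187 higher and 3725 to 4344 lower, and leaving out 1 nerve pool gave 3875 to 4792 higher and 3894 to 4785 lower. Without the replicate block for treatment 4756 were higher and 4528 lower. With treatment as a random block in a fit of all pools the counts were 5453 higher and 5318 lower, at a consensus correlation of 0.03. Chosen after seeing the data, the Gapdh ratio as a covariate gave 4022 higher and 3880 lower, though that ratio also largely separates the tissues. Leaving out the sham contralateral L4 and naive ipsilateral nerve pools, also chosen after seeing the data, gave 4315 higher and 4346 lower. There muscle genes were 31 higher and 2 lower of 42, myelin 14 and 0 of 21, and pan-neuronal 0 and 33 of 35. The count that depended on side was 1 with all pools, against 0.

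Over the 152 named genes, 3703 values kept direction and side of the threshold, 198 lost the threshold (44 of them with the muscle covariate), 16 gained it and 16 turned. On the deposited scale Tpsb2 was -0.14, Kif5b -0.28 and Ndufa6 -0.20. With the muscle covariate Mbp was -0.16, Tnnc1 0.071, Hba-a3 0.73, Cacna1b 0.053, Atp5f1e -0.35 and Ndufa6 -0.18. With the Gapdh covariate Cldn3 was 0.21, Ndufa6 -0.012 and Klf2 0.076. As means over all probe sets of the gene, Sparc was 1.65, Col11a1 0.96, Lss -0.019 and Fdft1 0.19, where probe sets of the gene were called in both directions. The other causes were not tested. Among 255 list genes with several probe sets tested, 19 had probe sets called in both directions. Signals near the bottom of the array scale limit the size of the differences of Adipoq, Fabp4, Nefh and Scn10a. Signals at its top limit that of Pmp22.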
